A study of Mus musculus with 9 samples.

Results

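The chemokines and chemokine receptors of mouse skin were followed across 3 transgenic lines and their controls. Members were taken from the array annotation by name alone: every gene whose symbol begins with Ccl, Cxcl, Ccr or Cxcr and a number, together with Cx3cl1, Cx3cr1, Xcl1 and Xcr1, provided a probe set named that gene and no other. The rule found 49 genes, 32 ligands and 17 receptors, among 12393 genes measured, and 66 probe sets among 22690. Of the 49 genes, 35 rested on 1 probe set and 14 on several, whose mean was used.

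The study asked how a constitutively active form of the kinase Akt changes skin. RNA from whole skin was pooled within a genotype and each pool was put on 1 array: 2 pools each for the transgenic lines L60, L84 and LA, and 3 pools for the control mice LC. All animals were of a C57BL/DBA/FVB mixed background, and skin was taken 30 days after birth. How the 3 lines differ from each other, which promoter drives the transgene and how many animals went into a pool are not given in the labels, and nothing in them says that the pools of a genotype share no animals, so p-values measure the spread between these pools, which may be technical.

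Every value below is a score, not an expression level. The deposited values have a mean of 0 and a standard deviation (SD) of 1 over the 9 arrays for each probe set, so a score of 1 lies 1 SD of that probe set above its own mean over the arrays, and no fold change or order of levels between genes can be had from it. A difference between genotypes is therefore a difference of mean scores, given with the standard error (SE) of a linear model fitted to all 9 arrays. A gene was called where limma's unmoderated test gave a Benjamini-Hochberg adjusted p under 0.05 over all 12393 genes. Because the tissue is whole skin, more cells of a type and more RNA per cell cannot be told apart.

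Chemokines are small secreted proteins that attract leukocytes by binding G protein-coupled receptors on their surface. In the CC family (genes named Ccl) the first cysteines stand side by side, and in the CXC family (Cxcl) another residue separates them. In skin, keratinocytes, fibroblasts, endothelium, mast cells and resident macrophages make them, some constantly and some after interferon, tumour necrosis factor or injury, and Langerhans cells and skin-homing T lymphocytes find their place through them.

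Promoters of 3 members are shown because Cxcl10 had the largest difference of line L84 from control skin, Cxcl9 is a close relative from the same group, and Ccr3 had the smallest adjusted p of any member. The windows come from RefSeq (GRCm38.p6) and run from 250 bases before to 50 after the annotated start, 5′ to 3′ on the gene's strand. Both strands were searched for a short form of the core of the interferon-stimulated response element (GAAANNGAA) and of an NF-kB motif (GGGANNTTC), and matches stand in capitals. N is any base, and no letter of a match to one motif was shared with the other in these windows. Cxcl10 lies at chr5:92348840-92349139 on the minus strand and holds the first motif at position -213 and the second at -159. Cxcl9, near it at chr5:92328030-92328329 on the minus strand, holds the first at -175 and the second at -154. Ccr3 lies at chr9:124021721-124022020 on the plus strand and holds the NF-kB motif at -178.
Cxcl10: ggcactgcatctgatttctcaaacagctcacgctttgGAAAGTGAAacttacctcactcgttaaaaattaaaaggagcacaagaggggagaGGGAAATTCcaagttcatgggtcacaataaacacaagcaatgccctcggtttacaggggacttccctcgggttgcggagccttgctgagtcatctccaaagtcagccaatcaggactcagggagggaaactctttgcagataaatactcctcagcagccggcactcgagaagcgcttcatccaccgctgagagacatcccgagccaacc
Cxcl9: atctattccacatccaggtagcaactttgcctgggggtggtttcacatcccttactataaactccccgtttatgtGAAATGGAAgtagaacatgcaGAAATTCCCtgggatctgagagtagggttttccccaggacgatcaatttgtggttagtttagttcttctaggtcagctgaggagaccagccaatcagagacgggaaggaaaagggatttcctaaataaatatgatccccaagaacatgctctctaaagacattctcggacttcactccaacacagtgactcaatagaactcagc
Ccr3: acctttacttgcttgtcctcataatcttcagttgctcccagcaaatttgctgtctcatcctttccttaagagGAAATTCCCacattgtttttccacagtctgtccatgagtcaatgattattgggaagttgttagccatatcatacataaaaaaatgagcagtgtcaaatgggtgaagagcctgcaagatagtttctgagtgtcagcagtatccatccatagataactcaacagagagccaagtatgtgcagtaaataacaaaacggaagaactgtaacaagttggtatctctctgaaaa
Of the 49 members, 36 had a window, 40 windows in all. The interferon motif was in 6 of them (Ccl1, Ccl3, Ccr2, Cxcl9, Cxcl10 and Cxcl14), 15% against 8.56% of 32851 windows of the same length. The NF-kB motif was in 7 (Ccl1, Ccr3, Cxcl1, Cxcl2, Cxcl9, Cxcl10 and Cxcr2), 17.5% against 3.94%. These shares depend on the letters asked for: with A added at the 3′ end of the first motif it was in 2 windows (Cxcl10 and Cxcl14), 5% against 3.44%, and with C added to the second it was in 5 (Ccl1, Ccr3, Cxcl1, Cxcl2 and Cxcl10), 12.5% against 1.47%, so that Cxcl9 held neither longer form. The short forms were chosen after the longer ones had been searched. A match describes these letters and is not a measured binding site.

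The arrays of a line resembled each other little over these genes. Over the 49 genes, the correlation between arrays of a genotype was -0.0991 for L60, -0.308 for L84 and -0.27 for LA. It was 0.11 to 0.264 among the LC arrays. Over all genes it was -0.0228 for L60, -0.296 for L84, 0.229 for LA and 0.103 to 0.604 among the LC arrays. Genes are not independent, and scores of 1 table share their centring, so these values only describe the arrays. The score of 18S ribosomal RNA stood at 2.09 on L60 array 1, 0.339 on L84 array 1 and 1.13 on LC array 1, against -0.642 to -0.528 on the others. L84 array 1 had the widest scores over the 49 genes (SD 1.25, against 1.13 over all genes). It held the highest value of 8 and the lowest of 12 of them. Of all genes, it held the highest value of 21.3% and the lowest of 21.5%. The part of these array differences in the results below was not tested.

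Most chemokine and receptor genes had higher mean scores in LA skin than in control skin, while the median differences of the family in L60 and L84 were small. In LA, 46 of 49 genes had a positive difference from LC (93.9%, against 56.1% of all genes), and their median difference was 1.28, against 0.247 over all genes. Both LA arrays lay above all 3 LC arrays for 33 of the 49 (67.3%), a pattern that 27.8% of all genes showed, and 0 of the 49 lay below all LC arrays, against 21% of all genes. In L84 the median difference was 0.199, against 0.00308 over all genes, with 34 positive differences (69.4%, against 50.1%). That L84 median was -0.112, with 22 positive, without L84 array 2, and 0.469, with 36 positive, without L84 array 1. In L60 it was 0.118, against 0.0777, with 29 positive (59.2%, against 54.8%). All 3 comparisons share the LC arrays.

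The median score of the family was highest on the LA arrays. It was -0.315 and -0.108 on the L60 arrays, -0.49 and 0.0143 on the L84 arrays, 0.657 and 0.804 on the LA arrays, and -0.33, -0.446 and -0.353 on the LC arrays. Both LA arrays lay above all others. Both L60 arrays, array 1 by little, and L84 array 2 lay above all LC arrays, and L84 array 1 lay below them. The highest of a gene's 9 scores was on an LA array for 33 of the 49 (67.3%, against 33.9% of all genes). Of these, 13 were on array 1 and 20 on array 2. The highest score was on an L84 array for 11 (22.4%, against 28.2%). It was on an L60 array for 4 (8.16%, against 18.2%) and on an LC array for 1 (2.04%, against 19.7%). With each array's median over all genes set to 0, the LA median difference of the family was 1.15 and that of all genes 0.115, and 28 genes (57.1%, against 24.3%) lay above all LC arrays in LA.

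**Figure D1:**
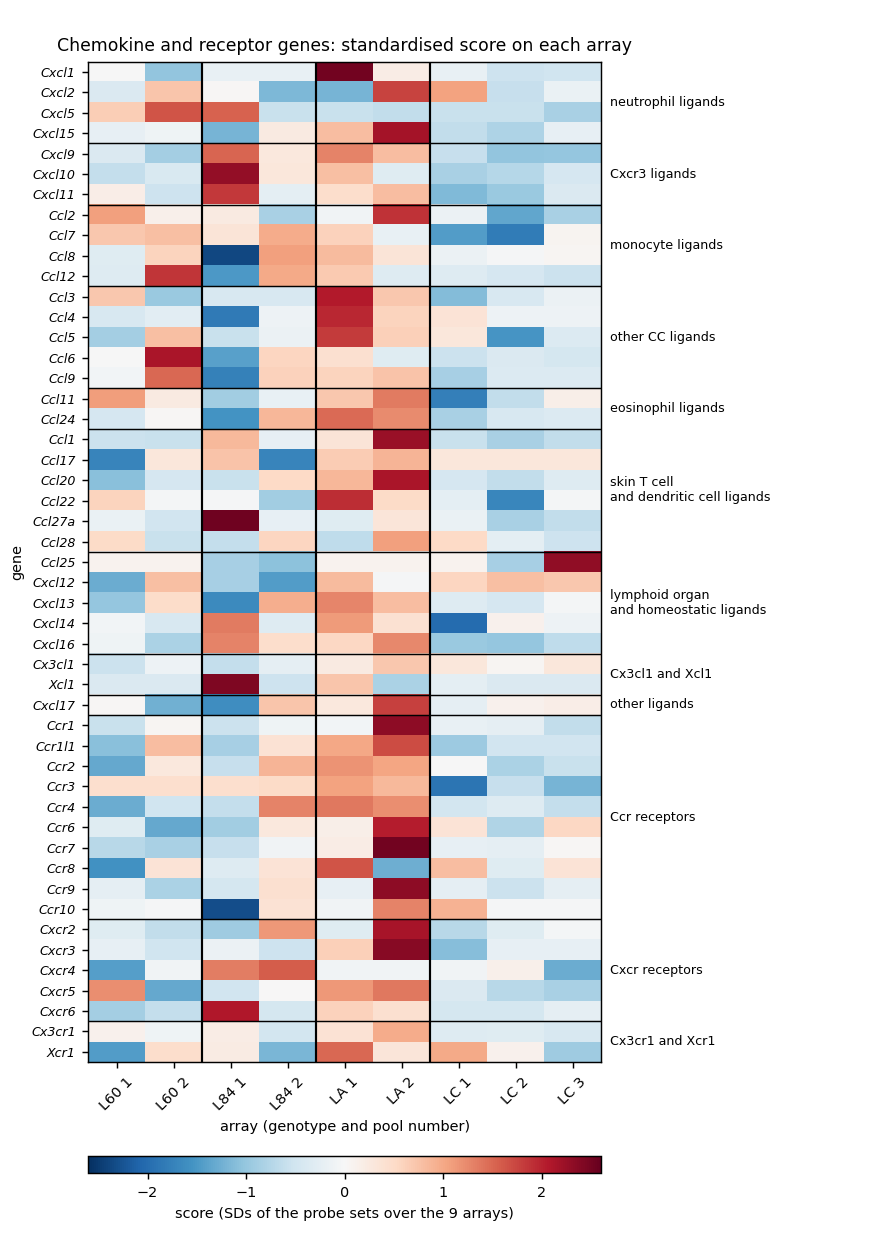
Scores of the 49 chemokine and receptor genes (rows, grouped by role) on the 9 arrays (columns, in the order L60, L84, LA and LC), in SDs of the probe sets over the arrays. The LA columns hold the highest score of 33 genes (67.3%, against 33.9% of all genes). L84 array 1 holds both very high and very low scores (SD 1.25, against 1.13 over all genes).

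No single gene of the family passed the test in any comparison. Against LC, 0 of 49 were called by limma's unmoderated test in L60, L84 and LA, where 0%, 0.565% and 1.8% of all genes were called, and 0 were called with moderated variance too. At an unadjusted p under 0.05 there were 3 of 49 in L60 (6.12%, against 4.72% of all genes), 8 in L84 (16.3%, against 12.2%) and 13 in LA (26.5%, against 20.8%). All 13 of the LA genes had positive differences: Ccl1, Ccl3, Ccl11, Ccl20, Ccl24, Cxcl9, Cxcl15, Cxcl16, Ccr1l1, Ccr3, Ccr4, Cx3cr1 and Cxcr3. The mean of the 3 lines against LC gave 0 called and 4 at the unadjusted level, where 0.637% and 13.3% of all genes stood, and the F test over the 4 genotypes gave 0 and 5, where 0.734% and 14.8% stood. The smallest adjusted p of a member was 0.0699 for Ccr3 in LA, 0.2 for Cxcl16 in L84 and 0.723 for Ccr3 in L60. With L84 array 2 left out Cxcr6 was called in L84, and with LA array 1 left out Ccr7 was called in LA; their values stand with those receptors.

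Fewer genes stood clear of control skin in L60 and L84. In L60, 8 genes (16.3%, against 14.4% of all genes) lay above all LC arrays: Ccl2, Ccl6, Ccl7, Ccl9, Ccl11, Cxcl5, Ccr3 and Cx3cr1. Another 4 (8.16%, against 10.8%) lay below: Ccl4, Cx3cl1, Ccr7 and Cxcr6. In L84, 8 genes (16.3%, against 13.8%) lay above: Ccl1, Ccl7, Cxcl9, Cxcl10, Cxcl11, Cxcl16, Ccr3 and Cxcr4. Here 2 genes (4.08%, against 14.7%) lay below, Cx3cl1 and Cxcl12. The L84 count above LC was 25 without L84 array 1 (51%, against 33.9%) and 18 without L84 array 2 (36.7%, against 36.4%), and the L60 count was 19 without L60 array 1 (38.8%, against 31.8%), 16 without L60 array 2 (32.7%, against 32.5%) and 13 without LC array 3 (26.5%, against 19.6%). Without the 3 arrays high in 18S the counts above LC were 24 in L60 (49%, against 41.7%) and 30 in L84 (61.2%, against 40.6%). In LA the count above was between 33 (67.3%) and 40 (81.6%) whichever LA or LC array was left out. Of all genes, 29.8% to 42.4% then lay above, against 27.8% with all arrays. Below LC in LA lay 3 genes once LA array 1 or LA array 2 was left out (6.12%, against 35.7% and 29.2%).

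**Figure D2:**
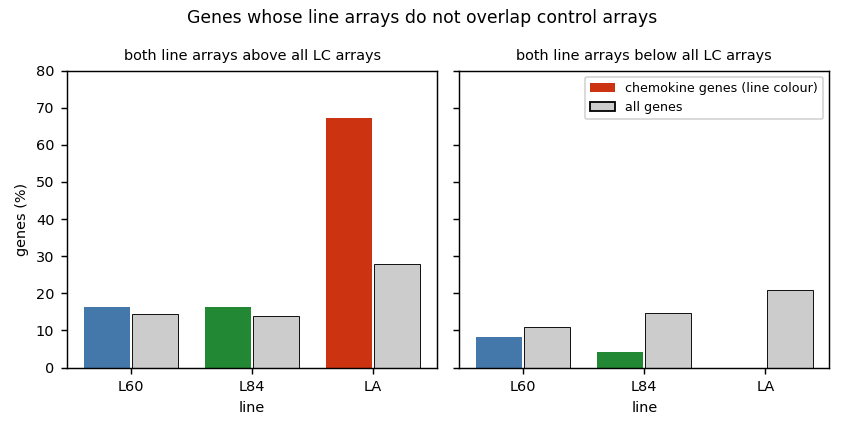
Share of genes, in percent, whose line arrays all lie above (left) or all lie below (right) the 3 LC arrays, for the 49 chemokine and receptor genes and for all 12393 genes, in L60, L84 and LA. In LA 67.3% of the family lies above LC, against 27.8% of all genes, and 0% lies below, against 21%.

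The interferon-inducible ligands of Cxcr3, which draw activated T cells and natural killer cells, were the one group whose members all stood above control skin in both L84 and LA. All 3 genes lay above all LC arrays in L84 and in LA, with median differences of 1.77 and 1.45, and 0 of 3 did in L60, where the median was 0.249. Of all genes, 13.8% lay above LC in L84, 27.8% in LA and 14.4% in L60. The L84 median rested largely on array 1: it was 0.961 without that array and 2.66 without array 2. Cxcl9 scored -0.367 and -0.884 in L60, 1.52 and 0.266 in L84, 1.28 and 0.8 in LA, and -0.603, -1.02 and -1.0 in LC. The L84 and LA arrays were all above the LC arrays, and the L60 arrays lay among them or just above. Cxcl9 differed by 1.77 ± 0.438 (SE; adjusted p = 0.24) in L84, where it was 1.14 without array 1, and by 1.92 ± 0.438 (SE; adjusted p = 0.108) in LA. Cxcl10, whose promoter holds both motifs in either form, scored -0.617 and -0.401 in L60, 2.29 and 0.288 in L84, 0.772 and -0.315 in LA, and -0.834, -0.747 and -0.436 in LC. Its L84 difference of 1.96 ± 0.671 (SE; adjusted p = 0.364) was 2.96 without array 2 and 0.961 without array 1. In LA the Cxcl10 difference was 0.901 ± 0.671 (SE; adjusted p = 0.469). Cxcl11 scored 0.173 and -0.539 in L60, 1.84 and -0.248 in L84, 0.459 and 0.793 in LA, and -1.14, -0.963 and -0.371 in LC. Its differences were 1.62 ± 0.684 (SE; adjusted p = 0.445) in L84, or 0.577 without array 1, and 1.45 ± 0.684 (SE; adjusted p = 0.302) in LA. L84 array 1 carried the highest score of each of the 3 genes.

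Cxcr3, the receptor that T cells use to follow these ligands, was high in LA and not in L84. It scored -0.223 and -0.511 in L60, -0.154 and -0.547 in L84, 0.622 and 2.37 in LA, and -1.11, -0.223 and -0.223 in LC. Both LA arrays lay above all LC arrays, and the other lines overlapped them. The LA difference was 2.02 ± 0.603 (SE; adjusted p = 0.162), and it was 1.14 without LA array 2 and 2.89 without LA array 1. In L84, where its ligands stood high, the Cxcr3 difference was 0.169 ± 0.603 (SE; adjusted p = 0.954).

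Ligands that call neutrophils through Cxcr2 did not move together. In LA 2 of 4 lay above all LC arrays, in L60 1 of 4 and in L84 0 of 4, with median differences of 0.977, 0.241 and 0.153. The shares of all genes above LC were 27.8%, 14.4% and 13.8%. Cxcl15, known in the mouse as a neutrophil attractant of the lung, scored -0.218 and -0.12 in L60, -1.2 and 0.238 in L84, 0.806 and 2.16 in LA, and -0.645, -0.811 and -0.218 in LC. Its LA difference was 2.04 ± 0.597 (SE; adjusted p = 0.157), among the largest of the family, and 1.36 without LA array 2. Cxcl1, made by keratinocytes and fibroblasts on injury, scored -0.0093 and -1.02 in L60, -0.195 and -0.195 in L84, 2.5 and 0.185 in LA, and -0.195, -0.548 and -0.525 in LC. A single LA array set most of its LA difference of 1.76 ± 0.737 (SE; adjusted p = 0.262). Cxcl2, its close relative, scored -0.367 and 0.719 in L60, 0.0285 and -1.17 in L84, -1.2 and 1.75 in LA, and 1.04, -0.609 and -0.182 in LC. The 2 LA arrays of Cxcl2 lay at opposite ends, and its differences in the 3 lines were between -0.656 and 0.19.

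Cxcl5, another Cxcr2 ligand, had the largest difference in L60. It scored 0.647 and 1.64 in L60, 1.54 and -0.587 in L84, -0.587 and -0.645 in LA, and -0.587, -0.587 and -0.839 in LC. Both L60 arrays and L84 array 1 stood high, while both LA arrays lay with LC, 1 of them at the score shared by LC arrays 1 and 2. The L60 difference was 1.82 ± 0.684 (SE; adjusted p = 1) and the LA difference 0.0549 ± 0.684 (SE; adjusted p = 0.969). Cxcr2 itself, the neutrophil receptor, scored -0.317 and -0.638 in L60, -0.926 and 1.13 in L84, -0.317 and 2.15 in LA, and -0.719, -0.317 and -0.0505 in LC. LA array 2 held the highest value and the LC arrays overlapped the other LA array, so its LA difference of 1.28 ± 0.953 (SE; adjusted p = 0.469) did not separate the groups.

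Monocyte attractants were the group of ligands with the highest median difference in L60. The 4 genes had a median difference of 1.3 in L60, 0.34 in L84 and 0.952 in LA. Above all LC arrays lay 2, 1 and 2 of them, where 14.4%, 13.8% and 27.8% of all genes did. Ccl2, the main ligand that draws monocytes through Ccr2, scored 1.06 and 0.136 in L60, 0.228 and -0.834 in L84, -0.0942 and 1.87 in LA, and -0.158, -1.36 and -0.851 in LC. Its differences were 1.39 ± 0.78 (SE; adjusted p = 1) in L60 and 1.68 ± 0.78 (SE; adjusted p = 0.296) in LA, and the LA value was 0.695 without LA array 2. Ccl7, a second Ccr2 ligand, scored 0.696 and 0.79 in L60, 0.345 and 0.963 in L84, 0.603 and -0.188 in LA, and -1.46, -1.82 and 0.0703 in LC. All 4 arrays of L60 and L84 lay above the LC arrays, and LA array 2 fell among them. Ccl7 differed by 1.81 ± 0.648 (SE; adjusted p = 1) in L60, 1.72 ± 0.648 (SE; adjusted p = 0.396) in L84 and 1.28 ± 0.648 (SE; adjusted p = 0.326) in LA. Ccl8 and Ccl12 had differences between -0.61 and 1.21. Ccr2, the receptor of Ccl2 and Ccl7, was measured by 3 probe sets. It scored -1.34 and 0.283 in L60, -0.604 and 0.88 in L84, 1.16 and 1.02 in LA, and -0.01, -0.814 and -0.575 in LC. LA lay above LC on both arrays, with a difference of 1.56 ± 0.68 (SE; adjusted p = 0.274), while L60 held the lowest array.

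Ccl3, Ccl4, Ccl5, Ccl6 and Ccl9, inflammatory CC chemokines, each lay above all LC arrays on both LA arrays, as did 27.8% of all genes. Ccl3, a macrophage product, scored 0.71 and -0.971 in L60, -0.414 and -0.414 in L84, 2.06 and 0.71 in LA, and -1.12, -0.414 and -0.145 in LC. It differed by 1.95 ± 0.688 (SE; adjusted p = 0.211) in LA. Ccl5, made by T cells and epithelium, scored -0.879 and 0.787 in L60, -0.582 and -0.154 in L84, 1.82 and 0.611 in LA, and 0.292, -1.53 and -0.359 in LC. It differed by 1.75 ± 0.809 (SE; adjusted p = 0.294) in LA. Ccl4, the neighbour and relative of Ccl3, scored -0.408 and -0.268 in L60, -1.84 and -0.125 in L84, 1.96 and 0.577 in LA, and 0.355, -0.125 and -0.125 in LC. The L60 arrays lay below LC, with a difference of -0.373 ± 0.659 (SE; adjusted p = 1), and the LA arrays above it, with 1.23 ± 0.659 (SE; adjusted p = 0.345). Ccl6 and Ccl9 are ligands of Ccr1 known in rodents. Ccl6 scored -0.0134 and 2.13 in L60, -1.42 and 0.566 in L84, 0.412 and -0.307 in LA, and -0.549, -0.367 and -0.454 in LC. Its L60 difference of 1.52 ± 0.872 (SE; adjusted p = 1) was 0.443 without L60 array 2, and its LA difference was 0.509 ± 0.872 (SE; adjusted p = 0.753). Ccl9 differed by 1.24 ± 0.833 (SE; adjusted p = 1) in L60 and 1.18 ± 0.833 (SE; adjusted p = 0.448) in LA. Ccr1, a receptor of both, scored -0.577 and 0.0416 in L60, -0.566 and -0.112 in L84, -0.0619 and 2.33 in LA, and -0.184, -0.238 and -0.632 in LC. Ccr1l1, a Ccr1-like gene beside it, scored -1.08 and 0.807 in L60, -0.872 and 0.37 in L84, 1.01 and 1.7 in LA, and -0.937, -0.501 and -0.493 in LC. Ccr1l1 had an LA difference of 2.0 ± 0.698 (SE; adjusted p = 0.207), and Ccr1 1.49 ± 0.739 (SE; adjusted p = 0.321), which was 0.289 without LA array 2.

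**Figure D3:**
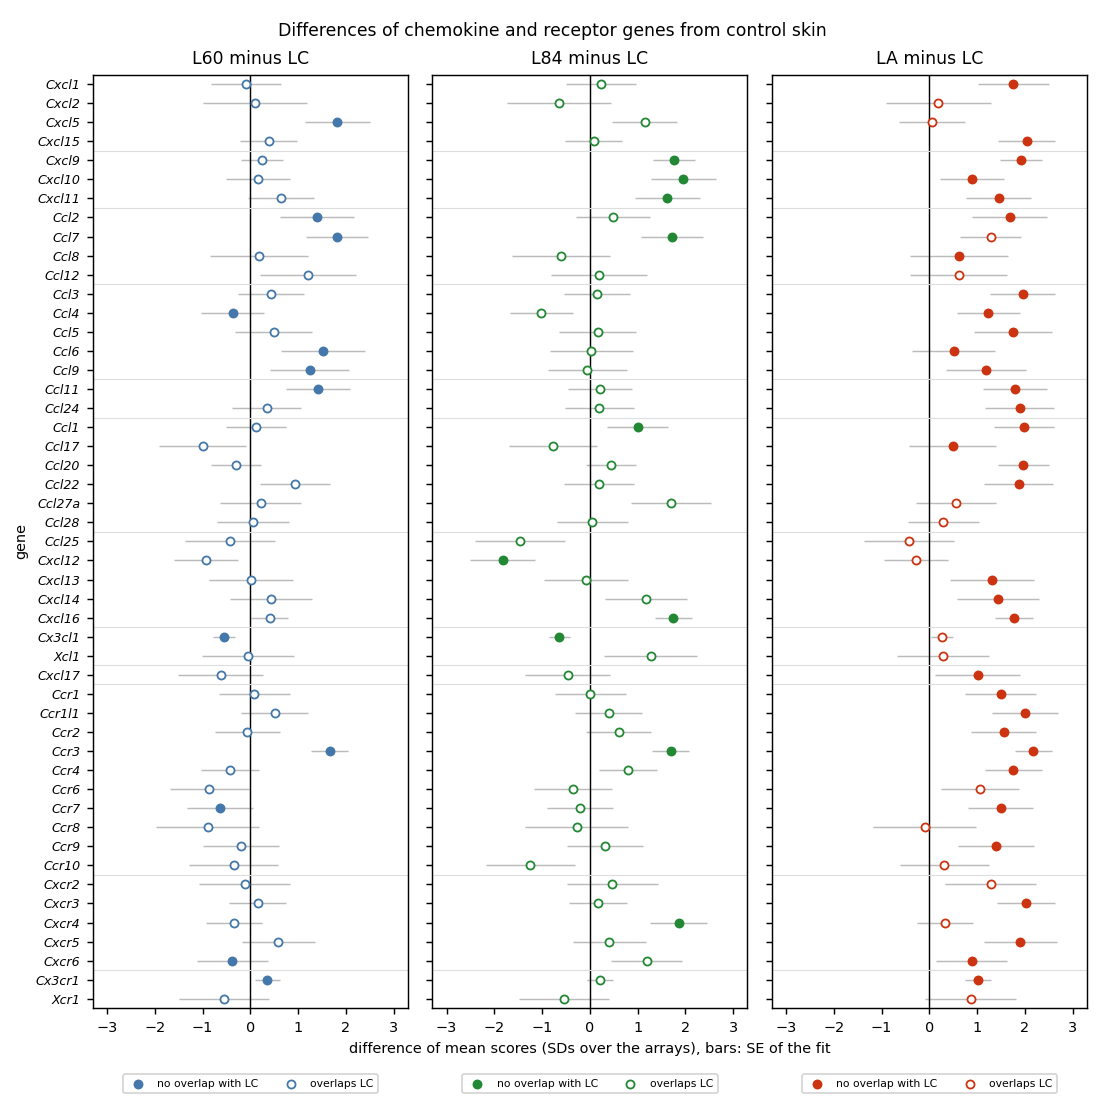
Difference of mean scores from LC for each of the 49 genes (rows, by role) in L60, L84 and LA (panels), in SDs over the arrays, with the SE of the fit as a bar; filled points mark genes whose line arrays do not overlap the LC arrays. In LA 46 points lie to the right of 0, against 29 in L60 and 34 in L84.

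Ccr3, the receptor of eosinophils, was the single member above control skin in all 3 lines, as were 3.7% of all genes. It scored 0.432 and 0.432 in L60, 0.432 and 0.493 in L84, 1.05 and 0.847 in LA, and -1.89, -0.593 and -1.2 in LC. Every line array lay above every LC array. Ccr3 differed by 1.66 ± 0.381 (SE; adjusted p = 0.723) in L60, 1.69 ± 0.381 (SE; adjusted p = 0.203) in L84 and 2.18 ± 0.381 (SE; adjusted p = 0.0699) in LA. The F test over the 4 genotypes gave an adjusted p of 0.174 in limma. Over all alternatives the LA difference was between 1.85 and 2.50, with adjusted p between 0.0724 and 0.296. Both L60 arrays and L84 array 1 had the same score, and such ties narrow the spread within a genotype that the test uses. The eotaxins Ccl11 and Ccl24, ligands of Ccr3, both lay above LC in LA (as did 27.8% of all genes), with a median of 1.84. Ccl11 scored 1.08 and 0.235 in L60, -0.912 and -0.189 in L84, 0.704 and 1.36 in LA, and -1.77, -0.644 and 0.148 in LC. Ccl24 scored -0.427 and 0.0305 in L60, -1.55 and 0.865 in L84, 1.47 and 1.22 in LA, and -0.849, -0.415 and -0.353 in LC. They differed by 1.79 ± 0.67 (SE; adjusted p = 0.229) and 1.89 ± 0.729 (SE; adjusted p = 0.238) in LA, and Ccl11 by 1.41 ± 0.67 (SE; adjusted p = 1) in L60.

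Ligands that guide T cells and dendritic cells within skin divided in LA. Both LA arrays lay above LC for 4 of 6, Ccl1, Ccl17, Ccl20 and Ccl22, but not for Ccl27a and Ccl28. They did so for 27.8% of all genes. Ccl20, which brings Langerhans cell precursors and Th17 cells through Ccr6, scored -1.09 and -0.435 in L60, -0.58 and 0.511 in L84, 0.869 and 2.13 in LA, and -0.437, -0.638 and -0.331 in LC. Its LA difference was 1.97 ± 0.526 (SE; adjusted p = 0.14), and against L60 it was 2.27 ± 0.576 (SE; adjusted p = 0.182 in limma), the smallest adjusted p of a member in that comparison. Ccr6 scored -0.312 and -1.34 in L60, -0.906 and 0.272 in L84, 0.153 and 2.04 in LA, and 0.348, -0.786 and 0.533 in LC. LA array 2 was the highest and array 1 lay among LC, for a difference of 1.06 ± 0.819 (SE; adjusted p = 0.482). Ccl1, a ligand of Ccr8, scored -0.552 and -0.589 in L60, 0.852 and -0.22 in L84, 0.339 and 2.24 in LA, and -0.589, -0.845 and -0.631 in LC. It differed by 1.0 ± 0.634 (SE; adjusted p = 0.612) in L84 and 1.98 ± 0.634 (SE; adjusted p = 0.181) in LA.

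Ccl22 and Ccl17, made by dendritic cells, act on Ccr4 of skin-homing T cells. Ccl22 scored 0.574 and -0.0471 in L60, -0.0312 and -0.909 in L84, 1.91 and 0.495 in LA, and -0.258, -1.69 and -0.0471 in LC. It differed by 1.87 ± 0.729 (SE; adjusted p = 0.241) in LA. Ccl17 scored -1.72 and 0.287 in L60, 0.743 and -1.71 in L84, 0.657 and 0.887 in LA, and 0.287, 0.287 and 0.287 in LC. The 3 LC arrays of Ccl17 had the same score, so that the LA arrays lay above them by a difference of only 0.485 ± 0.918 (SE; adjusted p = 0.778). Ccr4 scored -1.29 and -0.512 in L60, -0.624 and 1.28 in L84, 1.37 and 1.2 in LA, and -0.468, -0.33 and -0.626 in LC. The LA arrays were above LC, and so was 1 of the L84 arrays, and the LA difference was 1.76 ± 0.601 (SE; adjusted p = 0.2). Ccr8, on skin T cells and type 2 helper cells, differed by -0.102 ± 1.08 (SE; adjusted p = 0.963) in LA.

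Ccl27a, which keratinocytes make constantly and which draws Ccr10-bearing T cells to the epidermis, scored -0.175 and -0.495 in L60, 2.52 and -0.215 in L84, -0.317 and 0.321 in LA, and -0.175, -0.833 and -0.632 in LC. L84 array 1 alone stood out, and the L84 difference of 1.7 ± 0.839 (SE; adjusted p = 0.516) did not separate the line from LC. Ccr10 scored -0.103 and -0.0223 in L60, -2.31 and 0.385 in L84, -0.0944 and 1.29 in LA, and 0.905, -0.0223 and -0.0223 in LC. On L84 array 1 Ccr10 was lowest where Ccl27a was highest. Neither gene stood clear of LC in any line by the probe set that names it alone. The probe sets that Ccl27a shares with Ccl27b lay above all LC arrays in L84 and LA, and are given further below. Ccl28, the epithelial ligand of Ccr10, had differences of 0.0475 in L60, 0.0544 in L84 and 0.294 in LA, and its 2 probe sets had opposite signs in each line.

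**Figure D4:**
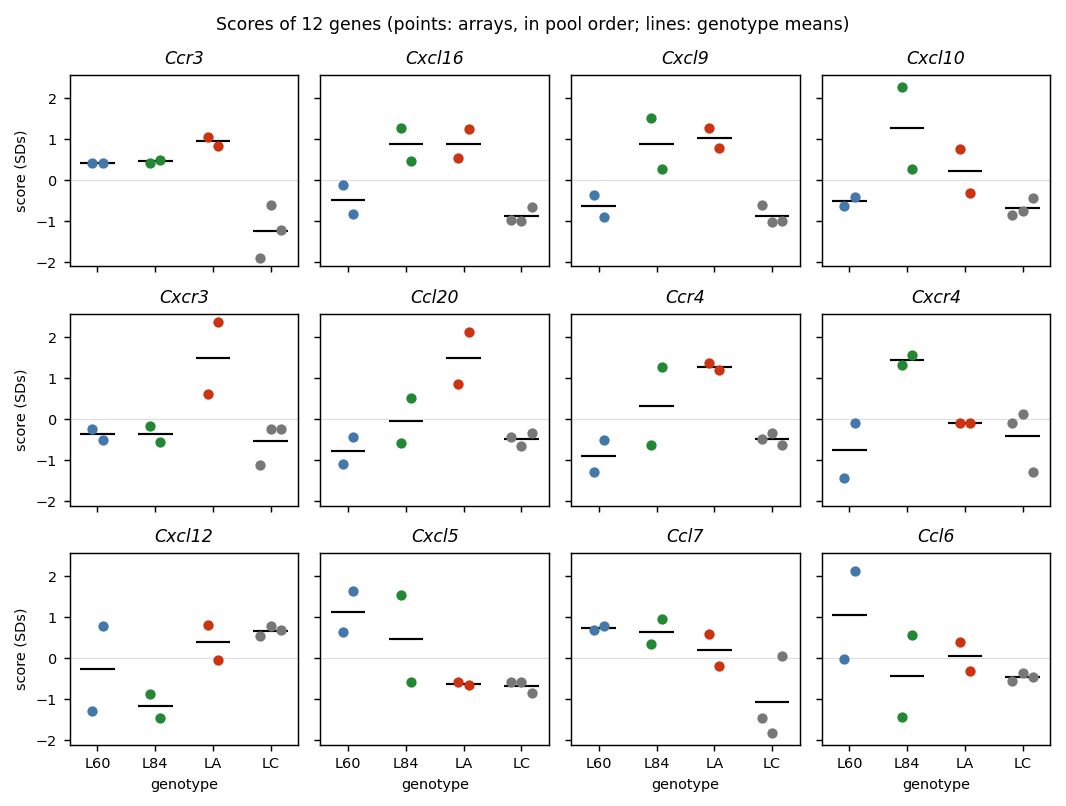
Scores of 12 genes on each array, in SDs over the arrays; points are arrays in pool order and lines are genotype means, in the order L60, L84, LA and LC. Ccr3 lies above LC on all line arrays, Cxcl9 and Cxcl10 lie above LC in L84 and LA, and Cxcl12 lies below LC on both L84 arrays.

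Homeostatic ligands showed the family's largest difference below control skin. Cxcl12, which fibroblasts and endothelium make and which holds Cxcr4-bearing cells in place, scored -1.29 and 0.782 in L60, -0.86 and -1.46 in L84, 0.819 and -0.0302 in LA, and 0.549, 0.781 and 0.702 in LC. Both L84 arrays lay below the LC arrays, as did L60 array 1 and LA array 2. Its differences were -1.83 ± 0.671 (SE; adjusted p = 0.387) in L84, -0.929 ± 0.671 (SE; adjusted p = 1) in L60 and -0.283 ± 0.671 (SE; adjusted p = 0.824) in LA. Its receptor Cxcr4, on leukocytes and stem cells, was placed the other way in L84. It scored -1.43 and -0.0825 in L60, 1.33 and 1.58 in L84, -0.0825 and -0.0825 in LA, and -0.0825, 0.139 and -1.29 in LC. Both L84 arrays lay above LC and all other arrays, with a difference of 1.86 ± 0.594 (SE; adjusted p = 0.338). Against L60 the L84 difference was 2.21 ± 0.651 (SE; adjusted p = 0.476 in limma).

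Cxcl16, a membrane-bound ligand of Cxcr6, had the smallest adjusted p of the family in L84. It scored -0.109 and -0.828 in L60, 1.29 and 0.466 in L84, 0.541 and 1.25 in LA, and -0.958, -0.996 and -0.662 in LC. All L84 and LA arrays lay above all LC arrays. It differed by 1.75 ± 0.392 (SE; adjusted p = 0.2) in L84 and by 1.77 ± 0.392 (SE; adjusted p = 0.103) in LA, and both of its probe sets were higher in L84. Its receptor Cxcr6, found on T cells and natural killer T cells, scored -0.892 and -0.621 in L60, 2.09 and -0.457 in L84, 0.607 and 0.409 in LA, and -0.453, -0.451 and -0.23 in LC. L84 array 1 stood far from array 2, which lay among LC; without array 2 the remaining L84 array differed from LC by 2.47 with an adjusted p of 0.034 in limma, which assumes that the lone array varies like the other groups. The LA difference of Cxcr6 was 0.886 ± 0.745 (SE; adjusted p = 0.516) and the L60 difference -0.378 ± 0.745 (SE; adjusted p = 1).

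Cxcl13, which organises B cell follicles, scored -1.01 and 0.471 in L60, -1.66 and 0.951 in L84, 1.26 and 0.804 in LA, and -0.33, -0.446 and -0.0516 in LC. LA stood above LC on both arrays, and the L84 arrays lay on opposite sides of it. The LA difference was 1.31 ± 0.883 (SE; adjusted p = 0.432). Cxcr5, its receptor on B cells, scored 1.21 and -1.33 in L60, -0.49 and 0.0143 in L84, 1.13 and 1.38 in LA, and -0.37, -0.713 and -0.837 in LC. The LA difference was 1.9 ± 0.763 (SE; adjusted p = 0.249), and the L60 arrays lay on opposite sides of LC. Cxcl14, which the epidermis makes constantly, scored -0.0798 and -0.426 in L60, 1.36 and -0.34 in L84, 1.11 and 0.404 in LA, and -2.0, 0.104 and -0.125 in LC. LC array 1 was the lowest of all, and both LA arrays lay above LC by a difference of 1.43 ± 0.859 (SE; adjusted p = 0.386). Ccr7, which leads dendritic cells and naive T cells to lymph nodes, scored -0.725 and -0.843 in L60, -0.607 and -0.0951 in L84, 0.196 and 2.5 in LA, and -0.218, -0.234 and 0.0269 in LC. The L60 arrays lay below LC, with a difference of -0.642 ± 0.687 (SE; adjusted p = 1), and the LA arrays above it, with 1.49 ± 0.687 (SE; adjusted p = 0.293). Nearly all of the LA value came from array 2: without LA array 1 the LA difference was 2.64 (adjusted p = 0.0403 in limma), and against L60 it was 3.28 (adjusted p = 0.0454), each from 1 LA array. Ccl25, the thymus and gut ligand of Ccr9, differed by -1.47 ± 0.943 (SE; adjusted p = 0.616) in L84 and -0.42 ± 0.943 (SE; adjusted p = 0.815) in LA. Ccr9 scored -0.235 and -0.82 in L60, -0.449 and 0.41 in L84, -0.22 and 2.32 in LA, and -0.229, -0.556 and -0.224 in LC. Its LA difference of 1.39 ± 0.8 (SE; adjusted p = 0.373) was 0.117 without LA array 2. Cxcl17, an epithelial chemokine of mucosa, differed by 1.01 ± 0.89 (SE; adjusted p = 0.535) in LA.

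Cx3cl1 and Cx3cr1, the pair of a membrane-bound ligand and its receptor on monocytes and macrophages, had small differences. Cx3cl1 scored -0.557 and -0.124 in L60, -0.625 and -0.238 in L84, 0.236 and 0.693 in LA, and 0.286, 0.0413 and 0.289 in LC. Its means lay below LC, with differences of -0.546 ± 0.229 (SE; adjusted p = 1) in L60 and -0.637 ± 0.229 (SE; adjusted p = 0.383) in L84. The 3 probe sets of Cx3cl1 did not move as 1 gene: in LA their differences were 2.22, 0.507 and -1.95, and 1 of them alone gave 0.423 in L60 and 1.07 in L84, the opposite sign of the mean. A mean of probe sets that disagree also has a small spread, so its SE is small. Cx3cr1 scored 0.109 and -0.108 in L60, 0.192 and -0.471 in L84, 0.372 and 0.964 in LA, and -0.335, -0.308 and -0.415 in LC. It differed by 0.353 ± 0.266 (SE; adjusted p = 1) in L60 and 1.02 ± 0.266 (SE; adjusted p = 0.134) in LA. Its 2 probe sets disagreed in sign in L60, at 0.907 and -0.2, and in L84, at -1.13 and 1.55. Xcl1, released by activated T and natural killer cells, scored -0.379 and -0.379 in L60, 2.42 and -0.546 in L84, 0.714 and -0.824 in LA, and -0.25, -0.379 and -0.379 in LC. Xcr1, its receptor on cross-presenting dendritic cells, scored -1.46 and 0.46 in L60, 0.221 and -1.19 in L84, 1.5 and 0.324 in LA, and 0.977, 0.103 and -0.931 in LC. Neither gene stood clear of LC in any line, and Xcl1 was high on L84 array 1 alone.

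In LA the 17 receptors had a median difference of 1.39, with 11 above all LC arrays, and the 32 ligands one of 1.26, with 22 above, where 27.8% of all genes lay above; the difference between receptors and ligands was not tested. In L60 the receptors had a median of -0.191 and the ligands 0.23, and in L84 the values were 0.317 and 0.195. Members apart from LC in no line numbered 11: Ccl12, Ccl25, Ccl27a, Ccl28, Cxcl2, Xcl1, Ccr6, Ccr8, Ccr10, Cxcr2 and Xcr1. The share of all genes apart from LC in no line is not given here, so this count only lists members.

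Many of these genes are neighbours, and their counts are to be read against the 27.8% of all genes that lay above all LC arrays in LA, 14.4% in L60 and 13.8% in L84. In the RefSeq gene order (GRCm38.p6) the run from Ccl5 to Ccl4 on chromosome 11 held 5 members, all above LC in LA, with a median of 1.23. The run from Ccl2 to Ccl1 on the same chromosome held 6, of which 4 lay above LC in LA (median 1.48) and 3 in L60 (median 1.3). The receptor run from Ccr9 to Ccr2 on chromosome 9 held 7, of which 6 lay above LC in LA (median 1.49) and 1 in L60 and in L84. On chromosome 5 the run from Cxcl9 to Cxcl11 is the group of Cxcr3 ligands given above, and the run from Cxcl15 to Cxcl2 held 3 members, of which 2 lay above LC in LA (median 1.76) and 0 in L60 and in L84. The run from Ccl22 to Ccl17 on chromosome 8, with Cx3cl1 between them, had 2 of 3 above LC in LA (median 0.485) and negative medians in L60 (-0.546) and L84 (-0.637).

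Differences between the lines were tested directly, and 0 of 49 members were called in any of the 3 comparisons. LA against L60 gave a median difference of 1.26, against 0.164 over all genes, with 43 positive (87.8%, against 54.5%). In this comparison 8 members stood at an unadjusted p under 0.05, where 0.629% of all genes were called and 16.2% stood at the unadjusted level. That median was 0.795 without L60 array 1, and 0.795 without the 3 arrays high in 18S. LA against L84 gave 1.07, against 0.117, with 41 positive (83.7%, against 53.6%). There 6 stood at the unadjusted level, where 0.0161% of all genes were called and 10.6% stood at that level. The smallest adjusted p there was 0.385, for Cx3cl1. L84 against L60 gave 0.00683, against -0.0753, with 25 positive (51%, against 46.6%). Here 3 stood at the unadjusted level, where 0.113% of all genes were called and 8.03% stood at that level.

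Other genes of the pathway were counted too. The atypical receptors numbered 5: Ackr1, Ackr2, Ackr3, Ackr4 and Ccrl2. The Ackr receptors bind chemokines without signalling through G proteins and clear or carry them. All 5 genes lay above LC in LA (against 27.8% of all genes), with a median of 1.79 and 0 called. Ackr3, which takes up Cxcl12, scored -0.194 and 0.142 in L60, -0.536 and 0.24 in L84, 1.89 and 1.12 in LA, and -1.29, -0.987 and -0.386 in LC. It differed by 2.39 ± 0.423 in LA (SE; adjusted p = 0.0702 in limma). Ackr4, which takes up Ccl19, Ccl21 and Ccl25, scored -1.09 and -0.983 in L60, 1.25 and 1.29 in L84, 0.0431 and 1.22 in LA, and -0.809, -0.293 and -0.621 in LC. It differed by 1.84 ± 0.373 in L84 (SE; adjusted p = 0.175 in limma). Of 21 genes that carry the receptors' signal, 8 lay above and 2 below all LC arrays in LA (median 0.73, 0 called), 5 and 1 in L60, and 4 and 3 in L84. Of all genes, 27.8% lay above and 21% below in LA, 14.4% and 10.8% in L60, and 13.8% and 14.7% in L84. Ptk2b, a kinase activated by calcium, scored -0.79 and 0.81 in L60, -0.387 and 0.00118 in L84, -1.05 and -1.57 in LA, and 1.07, 0.973 and 0.945 in LC. It differed by -2.31 ± 0.5 in LA (SE; adjusted p = 0.0984 in limma), opposite to most of that list. Rgs1, which damps G protein signals in lymphocytes, differed by 2.03 ± 0.601 in LA (SE; adjusted p = 0.161 in limma).

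Macrophage, dendritic cell and T lymphocyte markers mostly lay above all LC arrays in LA, while few neutrophil and no B lymphocyte markers did. The counts below stand against 27.8% of all genes above LC in LA and 13.8% in L84. Of 14 macrophage and dendritic cell markers, 11 lay above all LC arrays in LA, and the summed score of the list was -10.9 and 9.81 on the L60 arrays, -12.4 and 7.53 on the L84 arrays, 16.8 and 8.91 on the LA arrays, and -8.37 to -5.18 on the LC arrays. Cd207, the langerin gene of Langerhans cells, was the 1 marker of that list that passed the test, and it scored -0.379 and -0.476 in L60, 0.198 and 0.085 in L84, 1.61 and 1.6 in LA, and -0.777, -1.12 and -0.746 in LC. It rose in LA by 2.49 ± 0.127 (SE; adjusted p = 0.00472 in limma). With moderated variance 0 of 12393 genes were called in any comparison, Cd207 and the keratins below included. Of 9 T lymphocyte markers, 8 lay above LC in LA, with summed scores of -4.25 and -1.03 in L60, -1.25 and 1.84 in L84, 10.1 and 9.11 in LA, and -6.16 to -4.05 in LC, and 0 were called. Mast cell markers lay above LC for 5 of 7 in LA and 4 of 7 in L84, with summed scores of 5.11 and 3.96 in L84, 4.16 and 3.7 in LA, and -4.37 to -2.85 in LC. Neutrophil markers lay above LC for 2 of 10 in LA and B lymphocyte markers for 0 of 4. Their median LA differences were still positive, 1 for neutrophil markers (8 of 10 positive) and 0.837 for B lymphocyte markers (4 of 4 positive). Fibroblast markers lay above LC for 4 of 7 in LA, with summed scores of 6.76 and 4.28 there and -2.17 to -0.655 in LC, and endothelial markers for 3 of 7. Keratins of the hair shaft were the marker list with most calls: 9 of 9 fell in L84 (median -2.13, smallest adjusted p = 0.000718 in limma) and in LA (median -2.07, smallest adjusted p = 0.00102). In L60 0 of 9 were called, and 9 of 9 lay below all LC arrays (against 10.8% of all genes), with a median of -1.02. Their summed score was 1.28 and 3.13 on the L60 arrays, -9.4 and -8.56 on the L84 arrays, -8.88 and -8.18 on the LA arrays, and 9.85 to 10.6 on the LC arrays. Of 6 basal keratinocyte markers, 2 were called in L84 and in LA, both higher. The shares of all genes called were 0.565% in L84 and 1.8% in LA. The 6 had median differences of 1.56 in L84 and 0.885 in LA. In each line 5 were positive and 1 negative, the lowest at -0.262 in L84 and -1.5 in LA. Krt5 was higher by 2.21 in L84 (adjusted p = 0.0487 in limma) and 1.99 in LA (adjusted p = 0.0359), and Krt15 by 2.28 in L84 (adjusted p = 0.0193 in limma) and 1.93 in LA (adjusted p = 0.0184). Scores hold no level, so no marker can be shown to be absent from a sample, and the labelled tissue cannot be checked that way. The part of leukocyte, mast cell, fibroblast, hair shaft and keratinocyte content in the differences of the family was not tested.

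**Figure D5:**
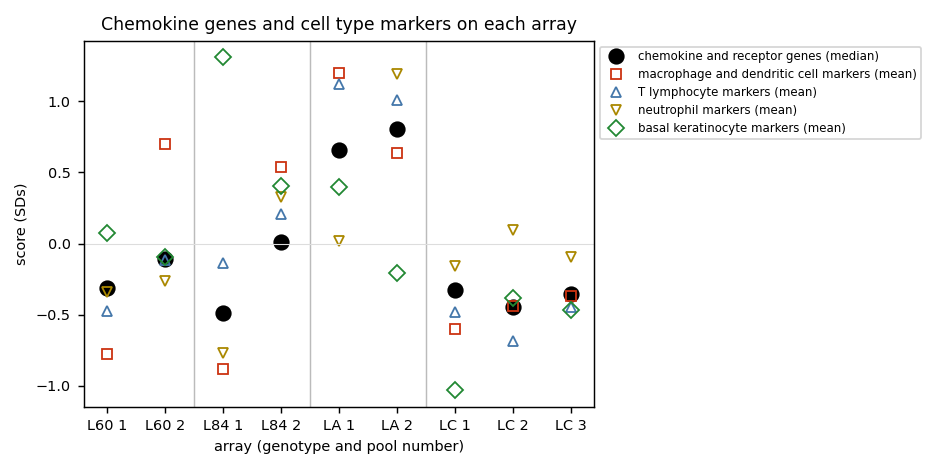
Median score of the 49 chemokine and receptor genes and mean score of marker lists on each array, in SDs over the arrays, in the order L60, L84, LA and LC. The family and the T lymphocyte markers are highest on both LA arrays, while the macrophage and dendritic cell markers are also high on L60 array 2 and L84 array 2.

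The measurement itself sets limits on single genes. Among the 14 members with several probe sets, the probe sets differed in sign in 6 for L60, 8 for L84 and 2 for LA. Equal scores on arrays of the same genotype were found in 14 probe sets of 13 members, and 45.5% of the family's probe sets held some tie, against 44.3% of all probe sets. A single array often set a gene's difference: in LA 12 of the 49 shrank by over 1.5 times or turned without array 1, and 16 without array 2, while the counts were 21 and 16 in L60, and 22 and 18 in L84. Precision is limited by the number of arrays, 2 or 3 for each genotype.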

How the data were processed

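Total RNA from 30 mg of whole skin was hybridised to 9 Affymetrix arrays, each a pool. The authors deposited standardised scores (mean 0, SD 1 per probe set over the arrays; range -2.66 to 2.67), and the submitters' processing notes name RMA (no version). The scale before standardisation and the signal over background are not given in the sources used here. Of 22690 probe sets, 64 were controls, 20380 named 1 gene, 691 several and 1555 none. The mean over probe sets naming a gene alone gave 12393 genes. Gene names were matched to the RefSeq table (GRCm38.p6) for 20351 probe sets, and 0 symbols changed.

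A linear model of genotype (limma 3.58.1, R 4.3.3) was fitted on all 9 arrays (5 residual degrees of freedom) without variance moderation, because a prior variance over genes has no meaning for standardised values. Calls used a Benjamini-Hochberg adjusted p under 0.05 over all genes, for L60, L84 and LA against LC, for the 3 pairs of lines, for the lines' mean against LC and for the F test. The fit was tested on simulated data. Alternatives were leaving out each array, the replicate number as a block, moderated variance, array medians set to 0, omitting the 3 arrays high in 18S, and each probe set on its own. The members and lists were chosen with earlier results of these data known. Scores on every array are given for members called in any contrast (there were 0), for up to 4 of the largest differences in each direction among members whose line arrays did not overlap LC, and for a fixed set of ligand and receptor pairs. Others are given as examples of their role groups.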

Additional observations from a re-analysis of the deposited data

Results flagged for a closer look

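Ccl4, Ccr7 and Cxcr6 lay on opposite sides of control skin in 2 lines: every LA array was above all LC arrays and every L60 array below them. The LA minus L60 difference was 1.61 for Ccl4, 2.13 for Ccr7 and 1.26 for Cxcr6. These genes were picked for this pattern, so the differences come from the same scores that selected them. Their L60 differences from LC were each smaller than the SE: -0.373 for Ccl4, -0.642 for Ccr7 and -0.378 for Cxcr6. Of all genes, 27.8% lay above all LC arrays in LA and 10.8% lay below them in L60. The share of all genes that did both is not given here. The pattern of opposite sides was not tested. The direct comparison of LA with L60 gave adjusted p of 0.356, 0.278 and 0.478 in limma.

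Probe sets that name several genes hold chemokines outside the 49 genes. A probe set shared by Ccl27a and Ccl27b lay above all LC arrays in every line, with differences of 0.402 in L60, 1.91 in L84 and 0.982 in LA. A second lay above all LC arrays in L84, by 2.32, and in LA, by 1.16, but overlapped them in L60. The probe set of Ccl27a alone overlapped LC in every line. The probe set shared by Ccl21a, Ccl21b, Ccl21c and Ccl21d, ligands of Ccr7, differed by 1.66 in L84 and 1.9 in LA. The probe set shared by Ccl19, the other Ccr7 ligand, and Ccl19-ps1 differed by 1.88 in LA. These probe sets list further genes too, 5 symbols in all for each Ccl27 probe set, 9 for that of Ccl21 and 10 for that of Ccl19. Which of the named genes gives the signal cannot be told apart.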

How the results depend on the processing

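In each of the 8 comparisons, 0 of the 49 genes were called under the replicate block, moderated variance, array medians set to 0 and without the 3 arrays high in 18S. Leaving out 1 array gave 0 to 1 called in L84 against LC, LA against LC, LA against L60 and the F test, namely Cxcr6 and Ccr7, and 0 in the other comparisons. The family's median LA minus LC difference was between 1.12 and 1.42 under all alternatives. Its median L84 minus LC difference was 0.469 without L84 array 1, -0.112 without L84 array 2 and 0.518 without the 3 arrays high in 18S, against 0.199 with all arrays. Same-numbered arrays deviated together with r from -0.0833 to 0.345, so the replicate numbers were not taken as pairs. In L60, L84 and LA against LC, the mean of the lines against LC, L84 against L60, LA against L60, LA against L84 and the F test, in that order, 0, 70, 223, 79, 14, 78, 2 and 91 genes were called over the whole array. The replicate block gave 1, 3, 1, 1, 0, 1, 1 and 1, with fewer residual degrees of freedom, and moderated variance 0 in each. Omitting the 3 arrays high in 18S gave 11, 12, 1, 11, 12, 13, 9 and 11. Leaving out 1 array gave 0 to 5, 5 to 129, 40 to 306, 13 to 110, 3 to 15, 4 to 112, 0 to 131 and 6 to 188. Array medians set to 0 gave 7 in L84 against L60, and single probe sets 0 in LA against L84. The cause of these changes was not tested. Counts of members apart from LC were recomputed in ways chosen after seeing the data. Leaving out 1 array gave 8 to 19 above LC in L60 (16.3% to 38.8%, against 18% to 32.5% of all genes). It gave 5 to 16 below (10.2% to 32.7%, against 13.1% to 27.6%). In L84 it gave 8 to 25 above (16.3% to 51%, against 15.7% to 36.4%) and 2 to 17 below (4.08% to 34.7%, against 16.4% to 37.2%). In LA it gave 33 to 40 above (67.3% to 81.6%, against 29.8% to 42.4%) and 0 to 3 below (0% to 6.12%, against 22.9% to 35.7%). Without the 3 arrays high in 18S, 24 lay above LC (49%, against 41.7% of all genes) and 14 below (28.6%, against 35.5%) in L60. In L84, 30 lay above (61.2%, against 40.6%) and 11 below (22.4%, against 43.7%). With array medians set to 0, 7 lay below LC in L60 (14.3%, against 14.9%). A probe set of Cx3cl1 taken alone reversed its sign, to 0.423 in L60 and 1.07 in L84. Of 245 differences of the 35 named members, 46 changed sign without the 3 arrays high in 18S, 8 of them over 1 in size, and 5 to 33 when 1 array was left out. Background correction, a filter on dim probes and slide or scan date were not run, because scores hold no signal.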
